A study of Mus musculus with 9 samples.

Results

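The mechanistic target of rapamycin complex 1 (mTORC1) and the proteins that report amino acid supply to it were examined as a set of 38 genes, of 54532 in the deposited tables, in 3T3-L1 cells, a mouse preadipocyte line. The genes were listed by name, not by a threshold on their values, and matched to the gene symbols of the tables. They comprise the subunits of the mTOR complexes, the TSC complex and Rheb, the Rag GTPases, Ragulator, GATOR1, GATOR2 and KICSTOR, the sestrins and Castor1, the folliculin complex, and 3 substrates of mTORC1. All 38 symbols matched a single gene, 37 had a count above 0 in at least 1 library, and Rragb was at 0 in all 9.

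Cells of 1 line were compared in 3 groups, each with n = 3 libraries of poly A RNA. Undifferentiated cells were kept confluent for 3 days in DMEM with bovine calf serum. Differentiated cells then received, for 3 days, a differentiation medium with fetal bovine serum, lysine, 10 μg/mL insulin, 1 μM rosiglitazone, 1 μM dexamethasone and the phosphodiesterase inhibitor IBMX at 0.5 mM, and Lysfree cells received the same medium with no lysine added, which still held traces of it. Undifferentiated therefore differs from the other groups in basal medium, serum and hormones. It may also differ in time in culture, since its time of harvest is not stated. These cannot be told apart, whereas Lysfree and Differentiated differ by the added lysine. Nothing in the labels says that the libraries of a group came from separate cultures, so the p values measure the spread between these libraries, which may be technical.

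mTORC1 is a protein kinase complex at the lysosomal surface that promotes translation and lipid synthesis and restrains autophagy when nutrients and growth factors are present. Amino acids act through the Rag GTPases, a heterodimer of RagA or RagB with RagC or RagD that Ragulator anchors to the lysosome and that recruits mTORC1. GATOR1 switches RagA and RagB off, GATOR2 opposes GATOR1, and the sestrins and CASTOR1 bind GATOR2 and release it when leucine or arginine is bound. Folliculin with its FNIP partners acts on RagC and RagD. Growth factors act through the TSC complex, which restrains Rheb, the direct activator of the kinase. In adipocyte precursors mTORC1 activity is known to favour differentiation. The libraries measure messenger RNA, not protein, phosphorylation or activity of the complex.

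Total counts ranged from 15880144 to 21806693 per library. Levels are given in the deposited FPKM (fragments per kilobase of gene, scaled to the library total and by a constant per library). Differences are given as log2 fold changes with standard error (SE) from edgeR's quasi-likelihood test on the counts, with adjusted p over all genes tested. A DEG had an adjusted p under 0.05 and at least a 2-fold change. The 6 fibroblast markers summed to 3772 to 4120 FPKM in Undifferentiated, 991 to 996 in Differentiated and 1461 to 1523 in Lysfree, and the 7 adipocyte markers to 283 to 349, 4468 to 4787 and 281 to 394 FPKM. Single markers did not all follow the sums in Lysfree vs Undifferentiated. Col1a1, Col1a2, Pdgfra and Pdgfrb were lower, Thy1 was higher (log2 fold change 0.39) and Vim did not pass the test. Adipoq (−3.74), Plin1, Cebpa and Pparg were lower, Cd36 (2.18) and Lpl were higher, and Fabp4 did not pass. Macrophage, endothelial, epithelial and skeletal muscle markers summed to at most 0.270 FPKM per list in any library. In every Lysfree library 2 of 3 macrophage, 0 of 3 endothelial, 1 of 2 epithelial and 3 of 3 muscle markers were at 0. Lysfree 1 stood apart from Lysfree 2 and 3: a chi-square per degree of freedom over genes was 39.6 and 40.7 against them, and 2.67 between those libraries. Pairs of Undifferentiated libraries gave 3.6 to 11.3, the highest between Undifferentiated 1 and 2, and pairs of Differentiated libraries 2.8 to 4.6. Each library was also set against the mean of the other libraries of its group. Of 35 well-counted members, 6 lay over 0.5 log2 units from that mean in Lysfree 1, beside 24.9% of all 14195 well-counted genes. Akt1s1, Eif4ebp1, Lamtor2 and Lamtor4 were below it, and Fnip1 and Seh1l above. In Lysfree 2 and Lysfree 3, 0 members lay that far off, beside 12.4% of these genes in each. Values without Lysfree 1 are therefore given where they move a result.

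Few members changed by 2-fold or more, while most changed by less. In Lysfree vs Differentiated the DEGs were Flcn, Fnip1, Fnip2, Lamtor3 and Rragd, 5 of the 37 members tested (13.5%), all higher in Lysfree, and 0 members were lower. Among all 24130 genes tested 8.14% were DEGs higher in Lysfree and 10.5% lower, and among genes with a mean of at least 1 CPM (count scaled by library size) 12.6% and 14.4%, so the share of higher DEGs was near that of expressed genes. At any size of change 17 members (45.9%) were higher and 8 (21.6%) lower, beside 19.7% and 18.8% of all genes and 34.5% and 30% of expressed genes. The FPKM ranges of the groups did not overlap for 28 members, as for 46.6% of all and 71.8% of expressed genes. The median log2 fold change was 0.24 over the members, −0.06 over all genes and 0.05 over expressed genes. In bulk RNA, a lower level can mean fewer cells of a type or less RNA per cell, and these cannot be told apart. Without Lysfree 1 the same 25 members passed an adjusted p of 0.05 in the same directions, and 6 more did, Rheb, Lamtor2, Wdr59, Seh1l, Rps6kb1 and Eif4ebp2. Of these, Wdr59 had a log2 fold change of 0.20 (edgeR adjusted p = 0.0332), Rps6kb1 had a log2 fold change of −0.20 (edgeR adjusted p = 0.00435) and Eif4ebp2 one of −0.13 (adjusted p = 0.00707).

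Differentiated vs Undifferentiated had more members lower than higher. Rragd, Castor1, Sesn3 and Flcn were DEGs lower in Differentiated (10.8% of members, 11.4% of all genes and 16.5% of expressed genes). Eif4ebp1 was a DEG higher (2.7%, against 10.4% of all and 14.4% of expressed genes). At any size 20 members were lower (54.1%) and 8 higher (21.6%), beside 23.2% and 23% of all 24402 genes tested and 39% and 38.4% of expressed genes. Groups did not overlap for 30 members, as for 50.9% of all and 79.6% of expressed genes. The median log2 fold change of the members was −0.20, that of all genes 0.02 and that of expressed genes −0.01. The adjusted p of Rragd was 0.0415 and that of Castor1 0.0454, both genes had at most 10 counts in any Undifferentiated or Differentiated library, and DESeq2, the replicate block and most of the fits with a library left out gave them an adjusted p over 0.05.

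Lysfree vs Undifferentiated had Rraga and Rragd as DEGs higher in Lysfree and Sesn1 and Sesn3 as DEGs lower (5.41% of members each way). Of all 23994 genes tested 5.52% were DEGs higher and 8.76% lower, and of expressed genes 8.31% and 12.1%. At any size 15 members were higher (40.5%) and 6 lower (16.2%), beside 18% and 17.1% of all genes and 31.8% and 27.9% of expressed genes. Groups did not overlap for 26 members, as for 43.5% of all and 67.6% of expressed genes. The median log2 fold change was 0.16, against −0.02 over all genes and 0.04 over expressed genes. Without Lysfree 1, 20 of the 21 passed in the same direction, Rragc did not, and Akt1s1, Mapkap1 and Tbc1d7 did, the latter 2 with log2 fold changes of 0.18 and −0.60 (edgeR adjusted p = 0.028 and 0.000259). The 3 comparisons share libraries, so a high or low level in 1 group enters 2 of them.

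**Figure D1:**
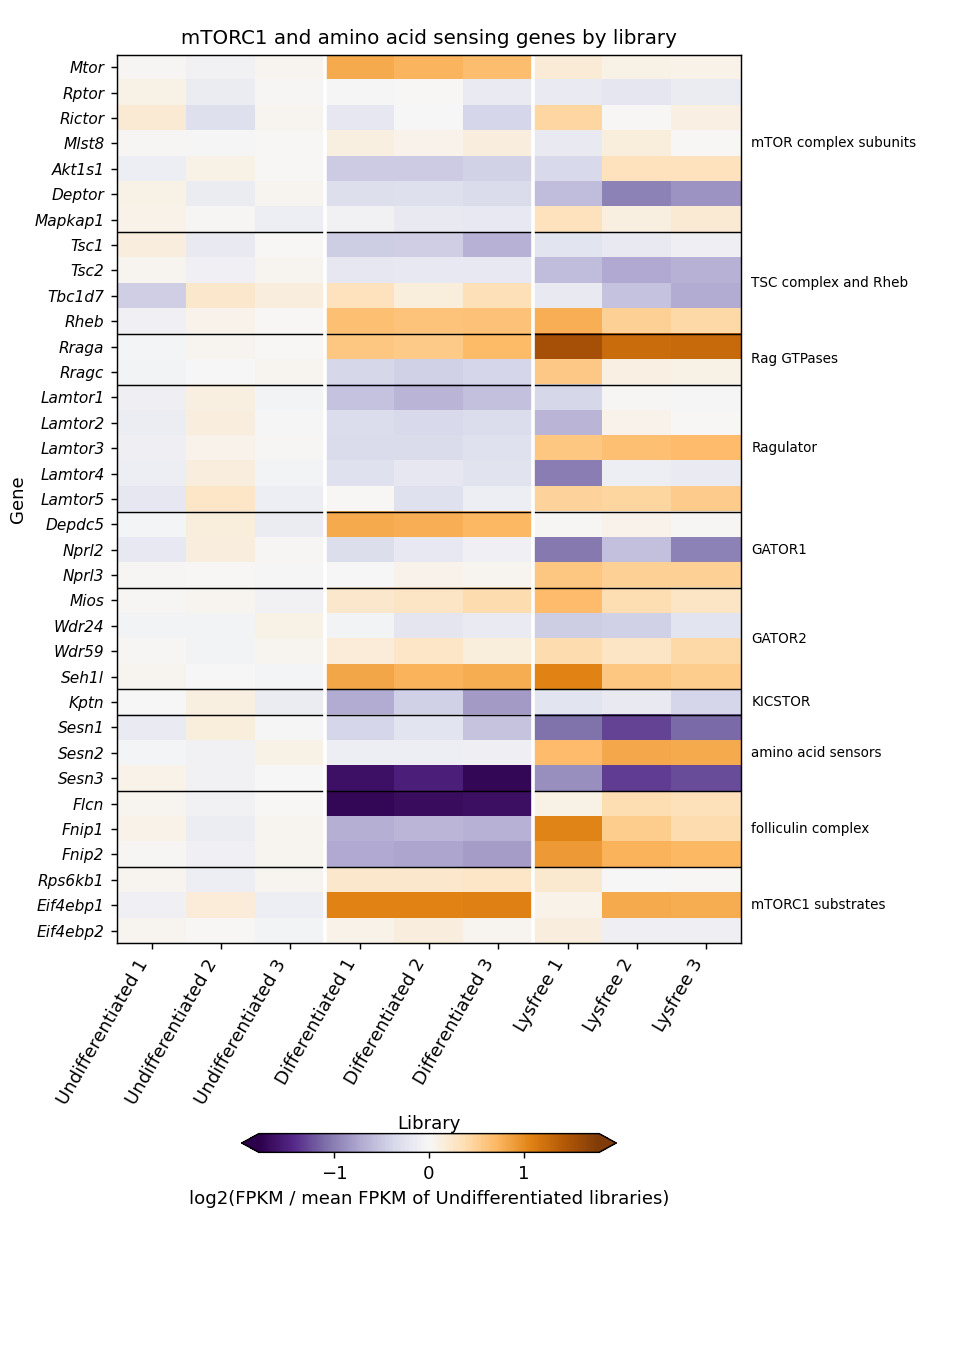
Each row is a member with over 10 counts in every library (35 genes), each column a library, and the colour is log2 of its FPKM over the mean FPKM of the Undifferentiated libraries, with rows grouped by complex. The folliculin genes are below the Undifferentiated mean in all 3 Differentiated libraries, Sesn1 and Sesn3 are below it in all 6 other libraries, and Rraga is above it in all 6.

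All 7 subunit genes of the mTOR kinase complexes changed by less than 2-fold in every comparison. Of expressed genes, 14.4% were DEGs higher and 16.5% lower in Differentiated vs Undifferentiated. The shares were 8.31% and 12.1% in Lysfree vs Undifferentiated and 12.6% and 14.4% in Lysfree vs Differentiated. Mtor, the kinase itself, was at 4.82, 4.55 and 4.86 FPKM in Undifferentiated, 8.27, 7.92 and 7.54 in Differentiated and 5.34, 5.07 and 4.995 in Lysfree. Its level was highest in Differentiated, with no overlap with either other group. The log2 fold change was 0.71 ± 0.07 (SE) in Differentiated vs Undifferentiated (edgeR adjusted p = 6.94e-25) and −0.56 ± 0.10 in Lysfree vs Differentiated (adjusted p = 5.59e-05), while in Lysfree vs Undifferentiated it was 0.16 ± 0.11 (adjusted p = 0.289).

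Rptor, which encodes Raptor, the scaffold that binds substrates and the Rag GTPases, was at 5.59, 4.78 and 5.30 FPKM in Undifferentiated, 5.15, 5.23 and 4.73 in Differentiated and 4.73, 4.53 and 4.74 in Lysfree. Its fold changes lay between −0.11 and −0.05 on the log2 scale and none passed the test (edgeR adjusted p = 0.364, 0.451 and 0.735). Mlst8, the subunit shared by mTORC1 and mTORC2, was at 4.84, 4.69 and 4.77 FPKM in Undifferentiated, 5.18, 4.98 and 5.22 in Differentiated and 4.26, 5.27 and 4.78 in Lysfree. Its log2 fold changes of 0.08 ± 0.10, 0.05 ± 0.14 and −0.04 ± 0.13 also did not pass (edgeR adjusted p = 0.547, 0.813 and 0.837). Exons of Mlst8 share 997 bases with Bricd5 on the opposite strand, and since the strand setting of the counting is not given in the sources used here, reads of that stretch could belong to either gene.

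The inhibitory and the mTORC2 subunits varied in different directions. Akt1s1, which encodes the inhibitor PRAS40, was at 54.4 to 62.2 FPKM in Undifferentiated, 42.1 to 44.0 in Differentiated and 45.4 to 73.0 in Lysfree. It fell by 0.48 ± 0.06 in Differentiated vs Undifferentiated and was higher by 0.64 ± 0.13 in Lysfree vs Differentiated (edgeR adjusted p = 6e-17 and 0.000453). The latter was lost under limma (adjusted p = 0.0839 and 0.0726 with pseudocounts of 1 and 0.1). Without Lysfree 1, its lowest Lysfree library, Akt1s1 was also higher than in Undifferentiated by 0.34 (adjusted p = 4.95e-08). Deptor, a second inhibitor of the kinase, was at 9.11 to 10.6, 7.97 to 8.22 and 5.09 to 6.66 FPKM, lowest in Lysfree, with log2 fold changes that all passed the test, −0.32 in Differentiated vs Undifferentiated and −0.75 and −0.44 in Lysfree against Undifferentiated and Differentiated.

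Rictor and Mapkap1, the latter encoding mSIN1, define mTORC2. Rictor was at 2.62 to 3.62 FPKM in Undifferentiated, 2.42 to 3.18 in Differentiated and 3.20 to 4.31 in Lysfree. Mapkap1 was at 18.4 to 20.8, 17.5 to 18.9 and 21.5 to 24.5 FPKM. Both were higher in Lysfree vs Differentiated, by 0.44 ± 0.12 and 0.41 ± 0.09 (edgeR adjusted p = 0.00626 and 0.00134). The value for Rictor was 0.28 without Lysfree 1, and its call was lost under limma with either pseudocount (adjusted p = 0.149 and 0.13). The smaller log2 fold changes in Differentiated vs Undifferentiated, −0.21 for Rictor and −0.16 for Mapkap1, had overlapping libraries and lost the call under several alternatives, DESeq2 among them.

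**Figure D2:**
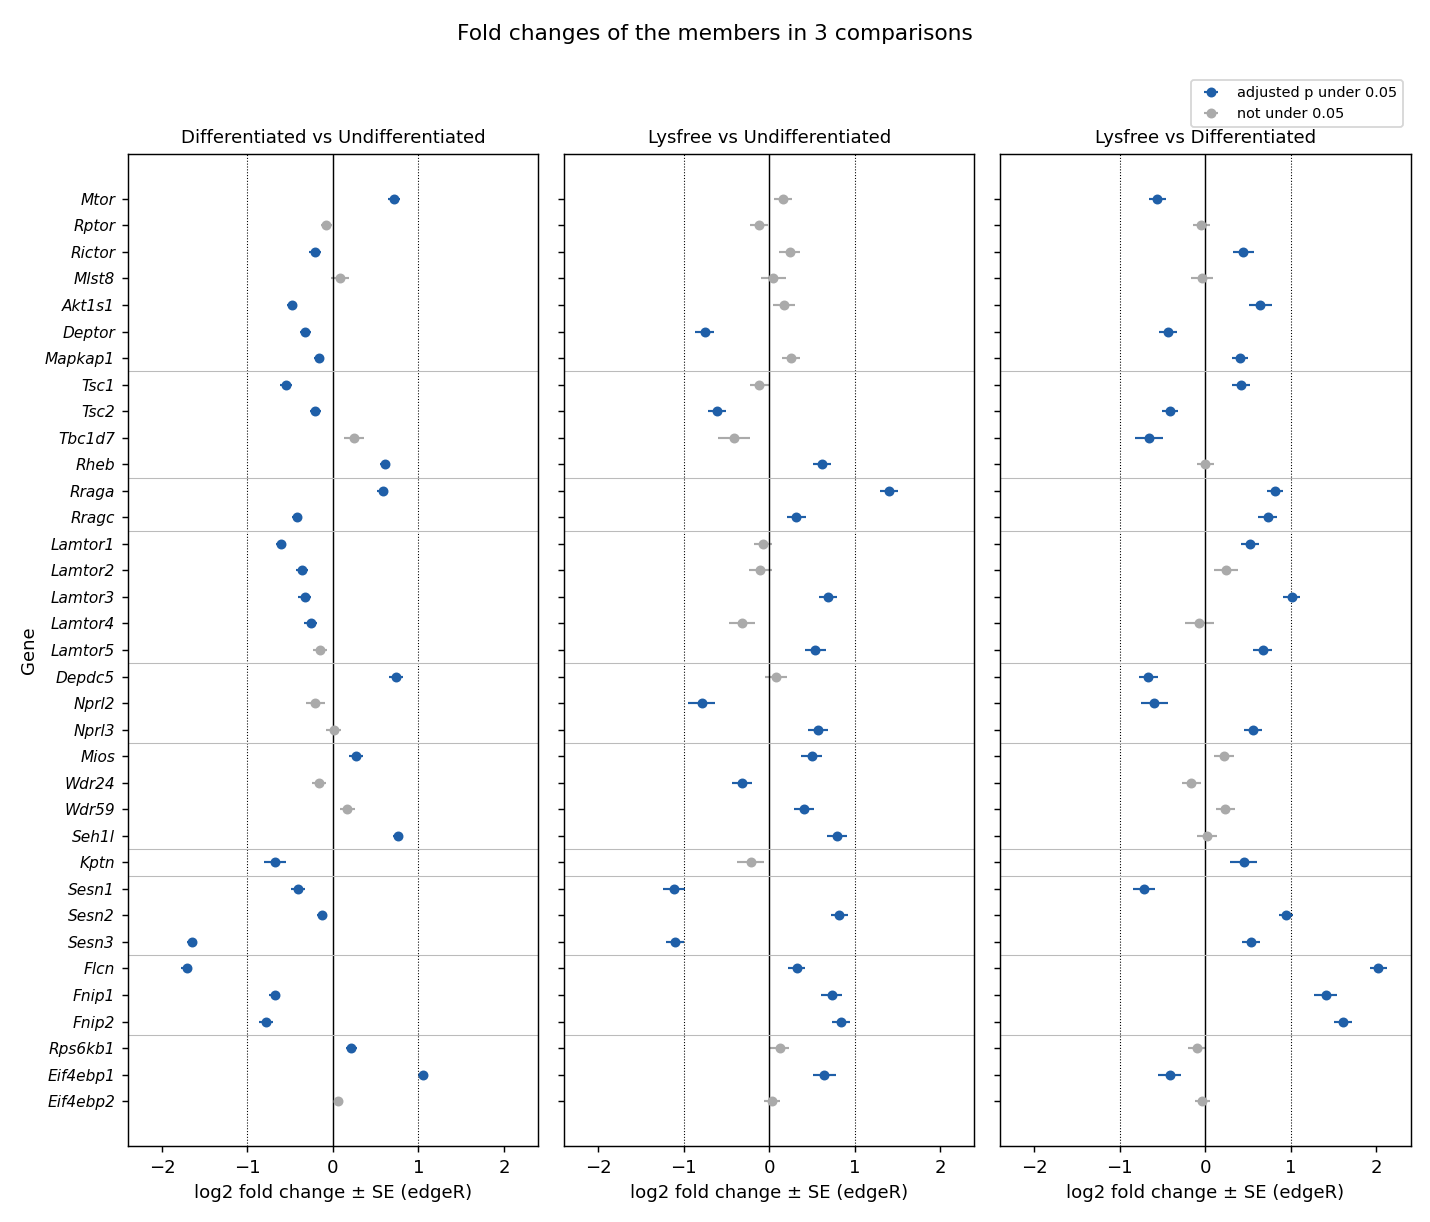
Points are the log2 fold changes of the 35 members with over 10 counts in every library, in each comparison, bars are ± SE, dotted lines mark a 2-fold change, and blue points have an edgeR adjusted p under 0.05. Flcn, Fnip1, Fnip2 and Lamtor3 are the points past the right dotted line in Lysfree vs Differentiated, and Rptor, Mlst8 and Eif4ebp2 are grey in all 3 panels.

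The growth factor arm consists of the activator Rheb and the genes of its restraining complex. Rheb, the GTPase that activates the kinase, was at 11.2, 12.3 and 11.9 FPKM in Undifferentiated, 18.6, 18.0 and 18.3 in Differentiated and 20.2, 16.7 and 15.7 in Lysfree. Both groups in differentiation medium were above all Undifferentiated libraries, by 0.60 ± 0.06 and 0.62 ± 0.11 on the log2 scale (edgeR adjusted p = 9.68e-24 and 1.27e-05). Lysfree and Differentiated overlapped, with a difference of 0.00 ± 0.10 that became −0.13 without Lysfree 1 (adjusted p = 0.019).

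Tsc1 and Tsc2 encode the partners hamartin and tuberin, which together with TBC1D7 form the complex that inactivates Rheb. Tsc1 was at 4.94 to 6.05, 3.49 to 4.05 and 4.69 to 5.16 FPKM in Undifferentiated, Differentiated and Lysfree, falling by 0.54 ± 0.07 in Differentiated vs Undifferentiated and higher by 0.42 ± 0.10 in Lysfree vs Differentiated (edgeR adjusted p = 6.3e-14 and 0.0025). Tsc2 was at 8.75 to 9.50, 8.11 to 8.18 and 5.59 to 6.15 FPKM. In contrast to Tsc1 it was lowest in Lysfree, by 0.61 ± 0.10 against Undifferentiated and 0.41 ± 0.09 against Differentiated (adjusted p = 1.05e-05 and 0.0012), although its exons share 693 bases with Pkd1 on the opposite strand. Tbc1d7, at 2.04 to 3.25, 3.08 to 3.52 and 1.70 to 2.48 FPKM, passed the test in Lysfree vs Differentiated, where it fell by 0.66 ± 0.16 (adjusted p = 0.00204).

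Among members with over 10 counts in every library, the Rag GTPase gene Rraga had the largest rise in Lysfree vs Undifferentiated. Rraga (chr4:86575668-86577285, GRCm38, plus strand), which encodes RagA, was at 41.7, 43.7 and 42.8 FPKM in Undifferentiated, 64.0, 62.6 and 68.9 in Differentiated and 123, 103 and 104 in Lysfree. The groups did not overlap, and the order was Undifferentiated, Differentiated, Lysfree. Log2 fold changes were 0.58 ± 0.06 in Differentiated vs Undifferentiated, and 1.40 ± 0.10 and 0.81 ± 0.09 in Lysfree against Undifferentiated and against Differentiated (edgeR adjusted p = 1.01e-19, 3.88e-13 and 3.23e-07). Its paralogue Rragb, RagB, had no count in any library, where 3 counts correspond to at most 0.189 CPM.

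Rragc (chr4:123917446-123936997, plus strand), which encodes RagC, was at 47.7, 49.1 and 51.0 FPKM in Undifferentiated, 38.1, 36.6 and 37.8 in Differentiated and 73.0, 53.1 and 52.5 in Lysfree. It fell by 0.42 ± 0.06 in Differentiated vs Undifferentiated and was higher by 0.73 ± 0.11 in Lysfree vs Differentiated (edgeR adjusted p = 5.03e-13 and 1.11e-05). The rise over Undifferentiated, 0.32 ± 0.11 (adjusted p = 0.0209), was 0.12 without Lysfree 1 (adjusted p = 0.0978) and also lost the call under DESeq2, both filters on low counts, limma, and without Undifferentiated 1 or Undifferentiated 3 (adjusted p = 0.0599 to 0.239). The Rraga share of the summed Rraga and Rragc FPKM was 46.5% ± 0.774 (SD, n = 3) in Undifferentiated, 63.4% ± 1.01 in Differentiated and 65.0% ± 2.03 in Lysfree. Rragc exons share 264 bases with 4930535I16Rik on the opposite strand.

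Rragd (chr4:32983037-33022180, plus strand), which encodes RagD, was nearly absent. Its counts were 2, 4 and 3 in Undifferentiated, 0, 0 and 0 in Differentiated and 8, 14 and 20 in Lysfree. The Lysfree counts were above those of both other groups, and the level was at least 4.53-fold higher than in Differentiated, taking 3 counts per library as the floor there (edgeR adjusted p = 7.29e-05). Per library total the summed count was 5.21 times that of Undifferentiated, with an exact 95% interval of 2.5 to 12.2 for counting error, and the log2 fold change was 2.29 ± 0.63 (adjusted p = 0.00366). No fold is given for Differentiated vs Undifferentiated, where both groups were at or near the floor. Even in Lysfree, Rragd reached at most 0.199 FPKM, while Rragc was at 52.5 or more.

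Ragulator, the pentamer that holds the Rag GTPases on the lysosome, had 4 of its 5 genes lower in Differentiated vs Undifferentiated and 3 higher in Lysfree vs Differentiated. At the same adjusted p under 0.05, 23.2% of all and 39% of expressed genes were lower in the former. In the latter 19.7% of all and 34.5% of expressed genes were higher. Lamtor3 (chr3:137918506-137928900, plus strand) was at 11.8, 13.1 and 12.6 FPKM in Undifferentiated, 9.95, 9.99 and 10.5 in Differentiated and 18.8, 19.8 and 20.04 in Lysfree. All Lysfree libraries were above all others, by 1.01 ± 0.10 against Differentiated and 0.69 ± 0.11 against Undifferentiated (edgeR adjusted p = 2.11e-08 and 1.83e-06). The first value was just past the 2-fold threshold and under it with DESeq2, other size factors, either filter on low counts, limma, or Differentiated 1, Lysfree 2 or Lysfree 3 left out, and 11.4% of the 100-base windows of its transcript also occur in Gm5900, so some reads could be shared with that gene. Lamtor1, the myristoylated anchor subunit, was at 40.2 to 46.5 FPKM in Undifferentiated, 27.4 to 29.2 in Differentiated and 32.8 to 43.2 in Lysfree.

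Lamtor1 fell by 0.61 ± 0.06 in Differentiated vs Undifferentiated and was higher by 0.53 ± 0.11 in Lysfree vs Differentiated (edgeR adjusted p = 6.04e-24 and 0.000323), with 600 exon bases shared with Lrrc51 on the opposite strand. Lamtor5, at 33.8 to 46.3, 32.3 to 39.0 and 53.3 to 56.6 FPKM, was higher in Lysfree than in Undifferentiated by 0.54 ± 0.12 and than in Differentiated by 0.67 ± 0.11 (adjusted p = 0.000599 and 3.37e-05). Lamtor2, at 43.8 to 52.3, 37.2 to 38.4 and 30.6 to 49.7 FPKM, and Lamtor4, at 37.9 to 44.9, 33.9 to 35.7 and 20.2 to 37.7, fell in Differentiated vs Undifferentiated by 0.36 and 0.26. Both had their lowest value of all libraries in Lysfree 1, and without it Lamtor2 was higher in Lysfree vs Differentiated by 0.41 (adjusted p = 3.93e-09). In Lysfree vs Differentiated, Lamtor4 had a log2 fold change of −0.07 ± 0.16 (adjusted p = 0.769), which was 0.15 without Lysfree 1 (adjusted p = 0.0773).

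The folliculin complex showed the largest changes in Lysfree vs Differentiated among the members with over 10 counts in every library. Flcn, Fnip1 and Fnip2 encode folliculin and its partner proteins, which activate RagC and RagD and are required for mTORC1 to act on the transcription factors TFEB and TFE3. All 3 genes were lower in Differentiated vs Undifferentiated and higher in Lysfree vs Differentiated, and all 3 were DEGs in the latter. At an adjusted p under 0.05, 23.2% of all and 39% of expressed genes were lower in the former. In the latter 19.7% and 34.5% were higher, and 8.14% and 12.6% were DEGs higher. The promoters of Flcn, Fnip1 and Fnip2, with that of Rragc, are shown because these genes, whose products act on or are part of the same GTPase step, had the same order of levels, Differentiated lowest. Each sequence is the 250 bases before the RefSeq transcription start, read 5′ to 3′ on the gene's strand in GRCm38.p6, with CACGTG in capitals.
Flcn, chr11:59810040-59810289, minus strand: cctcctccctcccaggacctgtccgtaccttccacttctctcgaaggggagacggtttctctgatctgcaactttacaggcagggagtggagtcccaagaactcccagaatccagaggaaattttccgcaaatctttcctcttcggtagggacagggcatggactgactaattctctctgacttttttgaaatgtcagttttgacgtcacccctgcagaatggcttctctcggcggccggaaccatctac
Fnip1, chr11:54437929-54438178, plus strand: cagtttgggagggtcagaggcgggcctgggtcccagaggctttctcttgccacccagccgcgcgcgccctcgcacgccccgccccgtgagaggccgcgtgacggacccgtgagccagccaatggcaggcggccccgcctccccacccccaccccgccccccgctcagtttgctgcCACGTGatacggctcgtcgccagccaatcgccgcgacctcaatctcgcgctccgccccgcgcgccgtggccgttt
Fnip2, chr3:79567680-79567929, minus strand: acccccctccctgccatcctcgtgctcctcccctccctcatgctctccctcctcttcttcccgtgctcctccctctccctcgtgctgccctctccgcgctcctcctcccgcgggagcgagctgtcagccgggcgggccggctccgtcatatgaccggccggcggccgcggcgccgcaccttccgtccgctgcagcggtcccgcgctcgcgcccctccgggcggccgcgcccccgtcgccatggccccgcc
Rragc, chr4:123917183-123917432, plus strand: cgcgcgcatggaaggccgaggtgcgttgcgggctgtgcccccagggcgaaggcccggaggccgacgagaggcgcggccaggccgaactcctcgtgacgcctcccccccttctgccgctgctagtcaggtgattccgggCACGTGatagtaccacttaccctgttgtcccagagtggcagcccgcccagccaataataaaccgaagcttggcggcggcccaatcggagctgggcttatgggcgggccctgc

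Fnip1 and Rragc held 1 CACGTG each, 75 to 70 and 112 to 107 bases before the start, and Flcn and Fnip2 held none. The deposited gene coordinates of Fnip2 reach chr3:79567796, inside its window, so part of that window lies within the gene. The search covered both strands for TCACGTGA, the core of the CLEAR element bound by TFEB and TFE3, for CACGTG, the E-box contained in it, and for TGATGNAA, the amino acid response element bound by ATF4. Of the 33 members with a promoter in the RefSeq table, 0 held TCACGTGA, beside 0.907% of 27025 genes and 1.84% of 9330 expressed genes. CACGTG was in 7 members (21.2%: Rragc, Rheb, Lamtor4, Lamtor1, Fnip1, Tbc1d7 and Rragb), beside 6.86% of all and 9.98% of expressed genes. TGATGNAA was in 1 member, Lamtor4 (3.03%), beside 3.91% of all and 2.33% of expressed genes. These are counts of letters in a fixed window and not of bound sites. Deptor, Lamtor3, Wdr24, Seh1l and Eif4ebp1 had no entry.

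Flcn (chr11:59791408-59810016, minus strand) was at 35.6, 33.1 and 34.6 FPKM in Undifferentiated, 10.4, 10.8 and 10.9 in Differentiated and 36.7, 44.7 and 43.4 in Lysfree. Every Differentiated library was below every other library. The level was 3.28-fold lower in Differentiated vs Undifferentiated (log2 fold change −1.71 ± 0.06, edgeR adjusted p = 8.27e-158) and 4.06-fold higher in Lysfree vs Differentiated (2.02 ± 0.10, adjusted p = 7.26e-13). Lysfree exceeded Undifferentiated by 0.32 ± 0.10 (adjusted p = 0.0118), a call that was lost when Undifferentiated 2, Undifferentiated 3, Lysfree 2 or Lysfree 3 was left out (adjusted p = 0.0515, 0.0769, 0.0931 and 0.0505) and under limma (0.069 and 0.0689).

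Fnip1 (chr11:54438199-54518235, plus strand) was at 12.5, 11 and 12.2 FPKM in Undifferentiated, 7.44, 7.69 and 7.53 in Differentiated and 24.8, 17.2 and 15.6 in Lysfree. Fnip2 (chr3:79455974-79567796, minus strand) was at 5.57, 5.22 and 5.68 FPKM in Undifferentiated, 3.34, 3.27 and 3.14 in Differentiated and 10.4, 9.21 and 8.96 in Lysfree. For both genes the groups did not overlap and the order was Differentiated, Undifferentiated, Lysfree. Fnip1 fell by 0.68 ± 0.07 in Differentiated vs Undifferentiated and was higher by 1.41 ± 0.13 in Lysfree vs Differentiated and by 0.73 ± 0.12 in Lysfree vs Undifferentiated (edgeR adjusted p = 4.78e-24, 1.19e-08 and 9.36e-06). The corresponding values of Fnip2 were a fall by 0.78 ± 0.08 and rises by 1.61 ± 0.10 and 0.84 ± 0.11 (adjusted p = 3.54e-21, 4.64e-11 and 7.34e-08). Lysfree 1 was the highest library for Fnip1, and without it the rises were 1.16 and 0.48, with adjusted p = 5.6e-90 and 2.55e-12.

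The sum of Fnip1 and Fnip2 was 17.4 ± 1.03 FPKM (SD, n = 3) in Undifferentiated, 10.8 ± 0.150 in Differentiated and 28.7 ± 5.69 in Lysfree. Flcn was therefore at a higher FPKM than its partners combined in Undifferentiated and Lysfree, and at about their level in Differentiated. In Lysfree 1 the difference was small, with 36.7 FPKM for Flcn and 35.2 for its partners combined. Fnip2 made up 31.6% ± 0.716, 30.1% ± 0.796 and 33.7% ± 3.61 of the partner FPKM, and these shares overlapped between groups. Adipocyte marker FPKM moved with these genes in the opposite direction, high in Differentiated and low in Undifferentiated and Lysfree, and its part in the result was not tested.

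**Figure D3:**
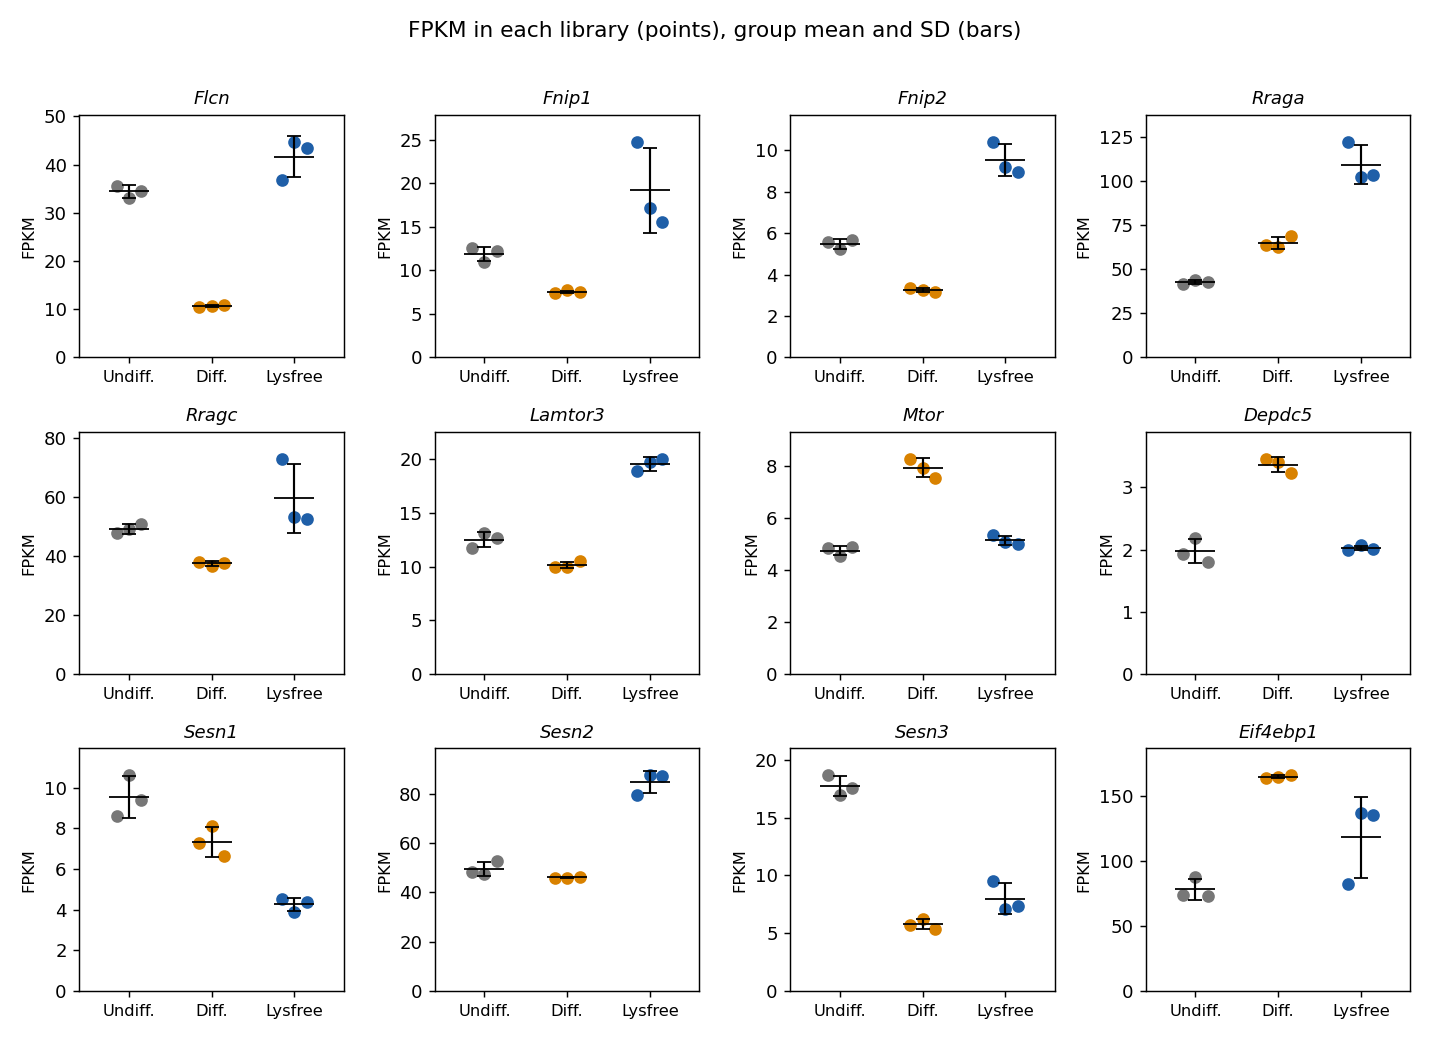
FPKM of 12 members in each library (points) with the group mean and SD (bars), axes from 0. The 3 folliculin genes are lowest in Differentiated, Mtor and Depdc5 are highest there, Rraga and Sesn2 are highest in Lysfree, and Sesn1 is lowest in Lysfree.

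GATOR1, the inhibitor of RagA and RagB, consists of Depdc5, Nprl2 and Nprl3, whose genes each had another pattern. Depdc5 was at 1.81 to 2.20 FPKM in Undifferentiated, 3.23 to 3.46 in Differentiated and 2.00 to 2.07 in Lysfree. It was higher by 0.74 ± 0.08 in Differentiated vs Undifferentiated and fell by 0.67 ± 0.11 in Lysfree vs Differentiated (edgeR adjusted p = 2.1e-17 and 3.61e-05). Nprl2 was at 7.32 to 9.04, 6.71 to 7.84 and 4.04 to 5.60 FPKM, lower in Lysfree by 0.79 ± 0.16 against Undifferentiated and 0.60 ± 0.16 against Differentiated (adjusted p = 0.000159 and 0.00406). Nprl3 was at 3.41 to 3.51, 3.43 to 3.61 and 4.89 to 5.17 FPKM, higher in Lysfree by 0.57 ± 0.12 and 0.56 ± 0.11 (adjusted p = 0.000174 and 0.000239), and 23.1% of the windows of its transcript lie in Mpg on the opposite strand. Thus in Lysfree 1 subunit gene was up against both groups, another was down against both, and Depdc5 was down against Differentiated and within the range of Undifferentiated.

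All 4 listed genes of GATOR2, which opposes GATOR1, Mios, Wdr24, Wdr59 and Seh1l, missed the threshold in Lysfree vs Differentiated, with log2 fold changes of −0.16 to 0.23. At an adjusted p under 0.05, 34.5% of expressed genes were higher and 30% lower in that comparison. Seh1l, also a nucleoporin, was at 22.4 to 23.5 FPKM in Undifferentiated, 38.3 to 40.6 in Differentiated and 32.9 to 47.9 in Lysfree. Its rises over Undifferentiated were 0.76 ± 0.06 and 0.79 ± 0.12 (edgeR adjusted p = 4.41e-36 and 9.14e-07), and without Lysfree 1, its highest library, it was lower in Lysfree vs Differentiated (log2 fold change −0.19, adjusted p = 0.000336). Mios, at 4.56 to 4.89, 5.59 to 6.21 and 5.75 to 7.68 FPKM, was above Undifferentiated in both groups, by 0.27 ± 0.08 and 0.50 ± 0.12. Wdr59, at 3.03 to 3.23, 3.48 to 3.79 and 3.82 to 4.20, was higher in Lysfree vs Undifferentiated by 0.41 ± 0.12, and Wdr24, at 10.8 to 11.9, 9.64 to 10.8 and 8.17 to 9.53, was lower by 0.32 ± 0.12 (adjusted p = 0.00636 and 0.0395), the latter lost when any Undifferentiated library or Lysfree 2 was left out (adjusted p = 0.067 to 0.19) and with library sizes alone (0.068).

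Kptn, the listed member of KICSTOR, which ties GATOR1 to the lysosome, was at 3.48 to 4.13 FPKM in Undifferentiated, 2.15 to 2.81 in Differentiated and 2.90 to 3.39 in Lysfree. It fell by 0.67 ± 0.13 in Differentiated vs Undifferentiated (edgeR adjusted p = 6.7e-07). The rise by 0.45 ± 0.16 in Lysfree vs Differentiated (adjusted p = 0.0315) was lost when Differentiated 1, Differentiated 3 or Lysfree 2 was left out (adjusted p = 0.112, 0.161 and 0.106), with DESeq2 (0.053) and under limma (0.0883 and 0.0752).

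The sestrins, stress-inducible proteins of which Sestrin2 is the best characterised leucine sensor, moved in different directions. Sesn2 (chr4:132492032-132510501, minus strand) was at 48.4, 47.5 and 52.7 FPKM in Undifferentiated, 46.0, 45.9 and 46.2 in Differentiated and 79.6, 87.4 and 87.1 in Lysfree. Every Lysfree library was above every other, by 0.94 ± 0.09 against Differentiated and 0.82 ± 0.10 against Undifferentiated (edgeR adjusted p = 9.57e-09 and 1.92e-08), just under a 2-fold change. The fall by 0.13 ± 0.06 in Differentiated vs Undifferentiated (adjusted p = 0.0396) was lost under DESeq2 and when Undifferentiated 3 or any Differentiated library was left out (adjusted p = 0.39, 0.118, 0.106 and 0.0666).

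Sesn1 (chr10:41809935-41908424, plus strand) was at 8.58, 10.6 and 9.41 FPKM in Undifferentiated, 7.26, 8.10 and 6.62 in Differentiated and 4.52, 3.88 and 4.37 in Lysfree. It descended in that order with no overlap, by 0.40 ± 0.08 in Differentiated vs Undifferentiated, 1.12 ± 0.13 in Lysfree vs Undifferentiated and 0.72 ± 0.13 in Lysfree vs Differentiated (edgeR adjusted p = 3.09e-06, 1.37e-08 and 7.41e-05). Sesn3 (chr9:14275067-14333101, plus strand) was at 18.7, 16.9 and 17.6 FPKM in Undifferentiated, 5.71, 6.22 and 5.39 in Differentiated and 9.52, 7.08 and 7.39 in Lysfree. It was 3.13-fold lower in Differentiated vs Undifferentiated (log2 fold change −1.65 ± 0.06) and 2.15-fold lower in Lysfree vs Undifferentiated (−1.10 ± 0.11), and Lysfree exceeded Differentiated by 0.53 ± 0.11 (adjusted p = 7.18e-182, 2.55e-10 and 0.000391). Within the family, then, Sesn2 and Sesn3 were higher in Lysfree vs Differentiated while Sesn1 was lower.

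Summed over the family, sestrin FPKM was 76.8 ± 2.57 (SD, n = 3) in Undifferentiated, 59.1 ± 0.986 in Differentiated and 96.9 ± 2.88 in Lysfree. Sesn2 made up 64.5% ± 1.48, 77.9% ± 1.59 and 87.3% ± 2.04 of it. These shares did not overlap between any groups, and the exact two-sided permutation p was 0.1 in each comparison, the smallest that 3 against 3 libraries allow, with an adjusted value of 0.167 over the 15 share comparisons made.

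**Figure D4:**
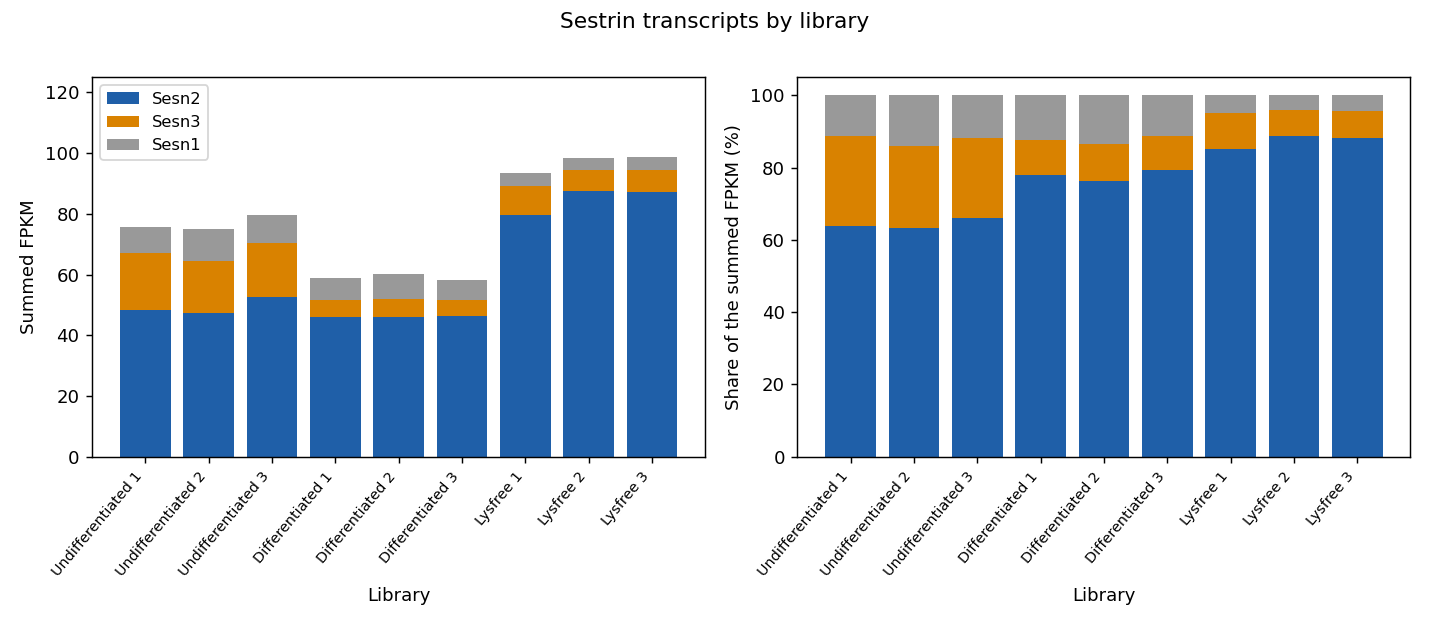
Stacked bars give the FPKM of Sesn2, Sesn3 and Sesn1 in each library (left) and their shares of the sum in percent (right). Sesn2 takes 63.3% to 66.1% of the sum in Undifferentiated, 76.2% to 79.4% in Differentiated and 85.0% to 88.9% in Lysfree.

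Castor1 (chr11:4218225-4222409, plus strand), the arginine sensor, was barely detected, with 10, 6 and 8 counts in Undifferentiated, 0, 2 and 3 in Differentiated and 4, 2 and 3 in Lysfree. The Undifferentiated counts were above those of both other groups. Per library total, the summed count in Undifferentiated was 4.25 times that in Differentiated, with an exact 95% interval of 1.59 to 14.2, and 2.39 times that in Lysfree, with an interval of 1.07 to 5.84, both for counting error only. The edgeR log2 fold changes were −2.00 ± 0.87 and −1.27 ± 0.74 (adjusted p = 0.0454 and 0.207), and the difference between Lysfree and Differentiated had an adjusted p of 0.608, so no difference of Lysfree from either group passed the test at this depth.

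Of the substrates, Eif4ebp1 was a DEG in Differentiated vs Undifferentiated and the others had log2 fold changes of at most 0.21 in size. Eif4ebp1 (chr8:27260329-27276674, plus strand), which encodes 4E-BP1, the repressor of cap-dependent translation that mTORC1 inactivates, was at 73.6, 87.5 and 72.8 FPKM in Undifferentiated, 164, 165 and 166 in Differentiated and 82.3, 136 and 135 in Lysfree. Differentiated was above all other libraries, and Lysfree 1 lay within the Undifferentiated range while Lysfree 2 and 3 lay above it. The rise in Differentiated vs Undifferentiated was 1.05 ± 0.05 (edgeR adjusted p = 2.14e-84), and in Lysfree vs Undifferentiated 0.65 ± 0.13 (adjusted p = 0.000132), the latter lost under limma with either pseudocount (adjusted p = 0.111 and 0.0986). Against Differentiated, Lysfree fell by 0.41 ± 0.13 (adjusted p = 0.0172), which was −0.23 without Lysfree 1 and was lost without Differentiated 2 (adjusted p = 0.0952), with library sizes alone (0.0552) and under limma (0.112 and 0.1).

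Its paralogue Eif4ebp2 was at 36.7 to 39.1 FPKM in Undifferentiated, 39.2 to 41.5 in Differentiated and 35.6 to 41.6 in Lysfree, with log2 fold changes of −0.03 to 0.06 that did not pass the test. The Eif4ebp1 share of the summed FPKM was 67.2% ± 2.28, 80.4% ± 0.513 and 75.0% ± 7.38. Rps6kb1, the gene of S6 kinase 1, was at 6.47 to 7.19, 8.13 to 8.29 and 6.86 to 8.06 FPKM, and was higher in Differentiated vs Undifferentiated by 0.21 ± 0.07 (edgeR adjusted p = 0.00351).

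Other genes of the pathway, 30 upstream regulators, partners and targets listed for comparison, gave 29 matches and 27 with counts, Ddit4l and Rnf152 being at 0. In Lysfree vs Differentiated 9 were higher and 10 lower at an adjusted p under 0.05, beside 34.5% and 30% of expressed genes. The counts in Differentiated vs Undifferentiated were 10 and 9, beside 38.4% and 39%. In Lysfree vs Undifferentiated they were 5 and 6, beside 31.8% and 27.9%. The median log2 fold changes of the 27 genes were −0.10, −0.12 and −0.10 in that order, and those of expressed genes 0.05, −0.01 and 0.04. The DEGs of Lysfree vs Differentiated were 1 gene higher and 4 lower of the 27, beside 12.6% and 14.4% of expressed genes. Itfg2, a further KICSTOR subunit, was at 2.4, 2.63 and 2.36 FPKM in Differentiated and 6.73, 5.96 and 6.38 in Lysfree, higher by 1.43 ± 0.11 (edgeR adjusted p = 1.47e-09). Lpin1, which encodes the phosphatidate phosphatase lipin 1, was at 30.4, 30.8 and 29.2 FPKM in Differentiated and 1.11, 1.06 and 1.16 in Lysfree, a log2 fold change of −4.70 ± 0.10 (adjusted p = 2.47e-18). Neither pair of groups overlapped.

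Castor2, the paralogue of Castor1, was at 3.21, 2.61 and 2.62 FPKM in Differentiated and 1.15, 1.03 and 1.13 in Lysfree, a log2 fold change of −1.28 ± 0.14 (edgeR adjusted p = 1.82e-07). Prr5, the mTORC2 subunit Protor1, had −1.33 ± 0.15, with 59.1, 54.6 and 54.9 FPKM in Differentiated and 14.7, 23.0 and 26.3 in Lysfree (adjusted p = 1.76e-07). Rps6kb2, S6 kinase 2, had −1.53 ± 0.16, with 15.9, 14.7 and 16.7 FPKM against 3.56, 5.98 and 6.03 (adjusted p = 8.14e-08), but 1224 of its exon bases are shared with Ptprcap on the opposite strand. Castor2 at a few FPKM was more abundant than Castor1, and unlike the members it had a DEG call downward in Lysfree vs Differentiated. Tfeb and Tfe3, chosen here after their values were seen, differed in direction in Lysfree vs Differentiated, with log2 fold changes of −0.89 ± 0.15 and 0.62 ± 0.10 (adjusted p = 3.33e-05 and 1.51e-05).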

How the data were processed

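Poly A RNA of 9 libraries of 3T3-L1 cells was analysed, with groups and replicates from the sample labels. The authors removed adaptor and low-quality reads from paired-end data, aligned the rest to mm10 (GRCm38) with HISAT2 (2.0.5 in the submitters' processing notes, which also list featureCounts 1.5.0-p3) and deposited raw counts per gene and, for the same 54532 genes, FPKM. The annotation release and strand setting are not given in the sources used here, so reads in overlaps with a neighbour on the opposite strand could belong to either gene. In each library the deposited FPKM equalled count per gene length and library total times a constant. It was 0.988 to 0.994 in Undifferentiated, 1.03 to 1.04 in Differentiated and 0.932 to 0.953 in Lysfree. Differences in FPKM between groups include this factor, while the edgeR fits start from the counts. Of the 38 members, 36 have the same start and end in GENCODE vM21.

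Counts were tested with edgeR 4.0.16 in R 4.3.3 (glmQLFit, glmQLFTest, TMM), separately for the 6 libraries of each comparison using genes detected (count above 0) in 1 or more of these, with Benjamini-Hochberg adjustment across all of those genes. The SE is the size of the log2 fold change divided by the square root of F. A DEG passed 2 limits, 0.05 for the adjusted p and 1 for the absolute log2 fold change. An exact permutation test of 3 against 3 cannot give a p under 0.1. The floor of a group was 3 counts per library, and intervals and floors cover counting error only.

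All members are accounted for. DEGs, Mtor, Rptor, Mlst8, Rheb and members with at most 10 counts are given by library, and others by group range, except Rragc and Sesn2, which are also given by library beside their paralogues. Of the other pathway genes, DEGs of Lysfree vs Differentiated are named. The members, gene lists, markers, motifs and tests were chosen with earlier results of these data known, and no list was tested as a set. Promoters are from RefSeq (GRCm38.p6). Total counts of 15880144 to 21806693 set the precision. Alternatives were DESeq2 1.42.0, limma 3.58.1 on log2(FPKM + 1) and log2(FPKM + 0.1), 2 other scalings, 2 filters on low counts, all 9 libraries in a single fit, the replicate number as a block, no fold change threshold and each library left out. The tests were run on simulated counts with large changes, the same dispersion for every gene and no deviating library. This does not check the calls of smaller changes.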

Additional observations from a re-analysis of the deposited data

How the results depend on the processing

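No member with an adjusted p under 0.05 changed direction under any alternative. Of those over it, Rheb and Seh1l in Lysfree vs Differentiated became −0.13 and −0.19 on the log2 scale and passed the test without Lysfree 1. With each library left out in turn they ranged from −0.13 to 0.072 for Rheb and from −0.19 to 0.11 for Seh1l, and the cause was not tested. In Differentiated vs Undifferentiated 5 members were DEGs, and 3 under DESeq2, edgeR's expression filter, a minimum of 10 counts in every library and limma on log2(FPKM + 1), in each case without Rragd and Castor1. With a library left out there were 3 to 4, and 3 without Undifferentiated 1, Undifferentiated 3, Differentiated 1 or Differentiated 2. In Lysfree vs Differentiated 5 were DEGs, 3 under either filter and limma on log2(FPKM + 1), in each case without Lamtor3 and Rragd, and 4 to 5 with a library left out. In Lysfree vs Undifferentiated 4 were DEGs, 2 under limma on log2(FPKM + 1), without Rragd and Sesn1, and 4 with any library left out. The minimum of 10 counts removes Rragd and Castor1 by construction, and a pseudocount of 1 shrinks the change of genes at low FPKM. With no fold change threshold 28, 25 and 21 members passed in Differentiated vs Undifferentiated, Lysfree vs Differentiated and Lysfree vs Undifferentiated. A single fit of all 9 libraries took the call from 7 members in Differentiated vs Undifferentiated (Rictor, Mapkap1, Tsc2, Lamtor4, Castor1, Sesn2 and Rps6kb1). The same fit gave the call to Mapkap1, Tbc1d7 and Lamtor4 in Lysfree vs Undifferentiated (edgeR adjusted p = 0.0422, 0.0238 and 0.0082). Depth limits Rragb, Rragd and Castor1, which had at most 20 counts in any library.

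The replicate numbers were not taken to pair the libraries. Deviations from the group means of same-numbered libraries correlated at −0.084 to 0.116, and 1 of 6 libraries in Differentiated vs Undifferentiated, 4 of 6 in Lysfree vs Undifferentiated and 2 of 6 in Lysfree vs Differentiated correlated best with the library of their own number. With the replicate number as a block, 3 members were DEGs in Differentiated vs Undifferentiated, again without Rragd and Castor1, Mapkap1 and Sesn2 had an adjusted p over 0.05 there, and Lamtor4 gained the call in Lysfree vs Undifferentiated (log2 fold change −0.37, adjusted p = 0.0182, against 0.108 without the block).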
